A study of Capra hircus with 10 samples.

Results

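The enzymes described here write and erase methyl and acetyl groups on histones and methyl groups on DNA. They were taken by symbol from the protein-coding genes of a goat ovary expression table. A gene was a member when its symbol started with KDM, KMT, SETD, HDAC, SIRT or DNMT followed by a digit, or was TET1, TET2 or TET3. The rule found 59 of 20587 gene symbols, namely 17 KDM, 8 KMT, 9 SETD, 11 HDAC, 7 SIRT, 4 DNMT and 3 TET genes, with 209 transcripts between them. The rule used no measured value.

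The RNA came from whole ovaries of Anhui white goats, 5 labelled luteal phase and 5 labelled follicular phase. The ovaries were collected at a slaughterhouse, and age, treatment and parity were not given in the sources used here. Nothing states that the ovaries of a phase came from separate animals, so p-values measure only the spread between these samples. Each ovary gave 1 ribosomal RNA-depleted, strand-specific library.

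Histone lysine methyltransferases (KMT and several SETD proteins) add methyl groups whose effect depends on the residue. Methylation of H3K4 marks active promoters and enhancers, H3K36 transcribed gene bodies, and H3K9, H3K27 and H4K20 silent chromatin, and the KDM enzymes remove most of these marks. HDAC enzymes remove acetyl groups with the help of zinc, whereas sirtuins use NAD and also act in the cytosol and in mitochondria. DNMT enzymes methylate cytosine in DNA and TET enzymes oxidise the methylated base. In the ovary, these enzymes act both in the growing oocyte, which lays down its DNA methylation during growth, and in granulosa cells, which change into luteal cells after ovulation.

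The values are FPKM, which take account of the length of each transcript and the size of each library, so levels of different genes may be set side by side. Transcript FPKM were summed per gene symbol. The phases were compared with limma on log2(FPKM + 0.1), and each fold change is luteal minus follicular on this log2 scale. A gene was called at an adjusted p under 0.05, with Benjamini-Hochberg adjustment over all 15359 genes that reached an FPKM of 0.1 in at least 5 ovaries. Read counts were not used here, so the depth of each ovary is unknown and only the spread between ovaries gives the error.

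The phase labels were read against marker genes. STAR, which carries cholesterol into mitochondria for steroid synthesis, lay between 2081 and 3245 FPKM in luteal phase ovaries and between 12.1 and 25.7 in follicular phase ovaries. All 4 tested luteal markers and all 5 endothelial markers were higher in the luteal phase. Of 7 granulosa markers 4 were lower, as was the theca marker INSL3, and 5 of 7 oocyte markers other than KIT were lower. KIT, which cells outside the oocyte also express, was higher. Of 5 stromal markers 1 was lower and 1 higher, and none of 3 blood and immune markers was called. Summed FPKM of those 7 oocyte markers and OOSP2, which was listed at 0 in every ovary, ran from 8.34 to 19.4 in the luteal and from 16.2 to 46.0 in the follicular phase. For the granulosa list the sums ran from 115 to 655 and from 244 to 1086, for the luteal list from 3714 to 5456 and from 53.9 to 67.0, and for the endothelial list from 184 to 236 and from 79.7 to 92.6. Of 6 genes of dividing cells 2 were lower, beside 27.8% of all genes tested, with sums of 68.5 to 129 and 97.7 to 195. The part of these cell types in the results below was not tested.

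More of the enzymes were called lower than higher in the luteal phase. Of the 57 members tested, 29 were called lower, 4 were called higher and 24 were not called. The 29 lower calls are 50.9% of the members tested, beside 27.8% of all genes tested, and the 4 higher calls are 7.02%, beside 15.9%. In either direction 57.9% of the members and 43.7% of all genes were called. The median log2 fold change was -0.33 over the members and -0.14 over all genes tested, and 82.5% of the members and 62.0% of all genes had a fold change below 0. The changes were small, since only 13 of the 33 called members passed 0.5 in size on the log2 scale and only HDAC11 passed 1. In whole tissue, fewer cells of a type and less RNA per cell cannot be told apart.

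The size of these counts changed with the scale of each ovary, and lower calls outnumbered higher ones under each scaling. The FPKM of all transcripts added up to 452508 to 503276 in single luteal phase ovaries and to 492324 to 540124 in single follicular ones. With FPKM rescaled to TPM, which gives every ovary the same sum, 14 members were called lower and 5 higher, beside 17.0% and 18.8% of all genes. With log values shifted to a common median, 24 were called lower and 5 higher, beside 19.9% and 18.9% of all genes, and quantile normalization gave the same member counts beside 24.4% and 17.5%. The median of the members remained below that of all genes, at -0.23 against -0.05 with TPM and at -0.24 against -0.05 with a common median.

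**Figure D1:**
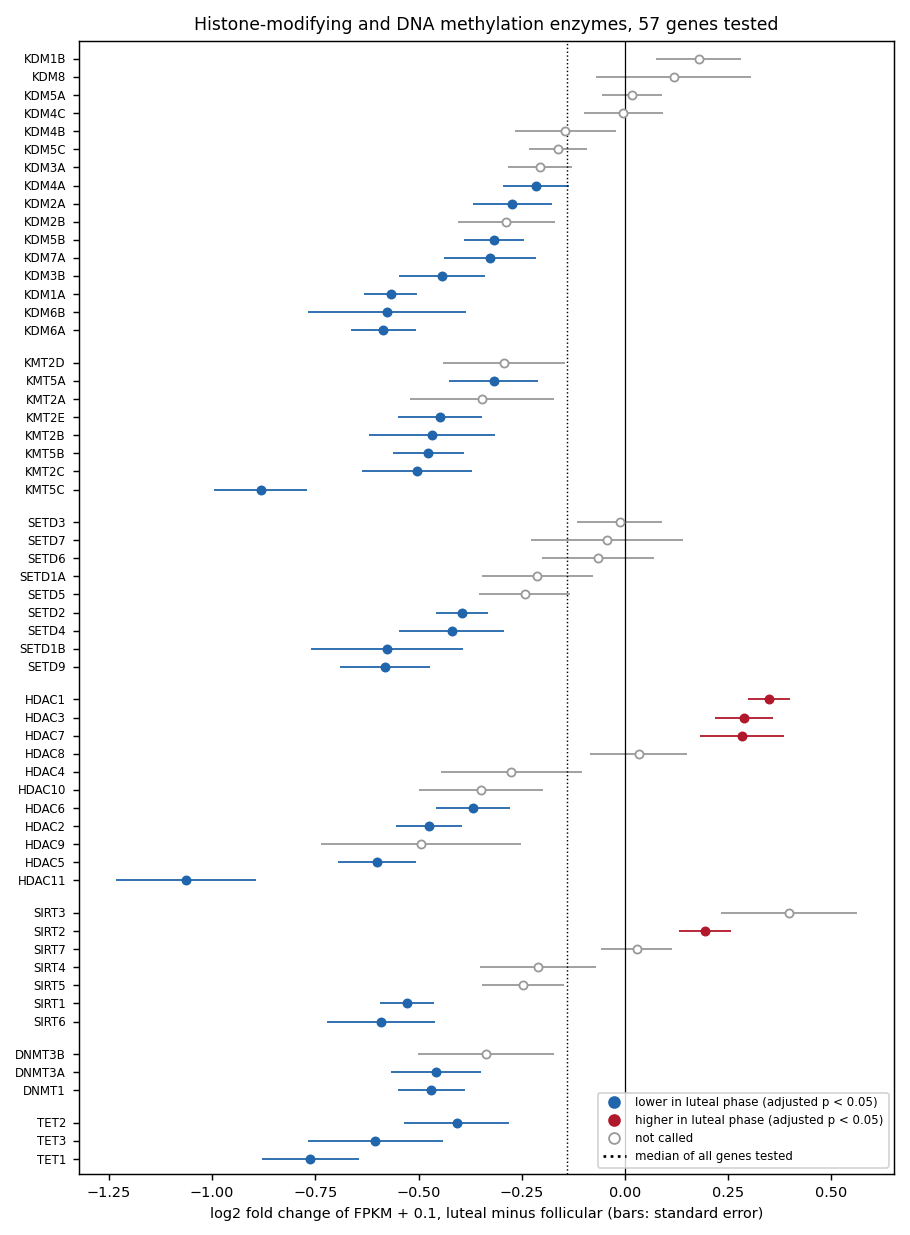
Log2 fold change (luteal minus follicular, on log2(FPKM + 0.1)) of each of the 57 members tested, grouped by family, with bars of 1 standard error, colour for the call and a dotted line at the median of all genes tested. Points lie mostly left of 0, HDAC11 reaches furthest left at -1.06, and the 4 members called higher are HDAC1, HDAC3, HDAC7 and SIRT2.

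Without any overlap between the phases, 16 members (28.1%) had every luteal phase ovary below every follicular phase ovary, beside 17.2% of all genes tested. Only 3 members (5.26%), HDAC1, HDAC3 and SIRT2, had every luteal phase ovary above, beside 11.2% of all genes. In either direction 28.4% of all genes had separate ranges. All 57 members tested reached an FPKM of 0.1 in 10 of 10 ovaries. The other 2 members were at the floor in both phases. DNMT3L, the inactive partner of the de novo DNA methyltransferases, did not exceed 0.132 FPKM in any ovary, and KDM4D, an H3K9 demethylase, did not exceed 0.0797.

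Levels differed widely between members. The median member had a mean of 6.44 FPKM over the 10 ovaries, beside 6.81 for all genes tested. HDAC2 had the highest mean with 56.0 FPKM, followed by HDAC1 with 51.3, HDAC3 with 30.6 and KDM1A with 27.6, whereas 10 members, both untested ones included, had means below 2. The median coefficient of variation between ovaries was 10.3% among luteal and 11.4% among follicular phase ovaries. Single ovaries leaned one way within their phase. Follicular phase ovary 2 was the lowest of its phase for 27 of the 57 members and for 33.1% of all genes, and follicular phase ovary 4 was the highest for none of the members and for 7.62% of all genes. Among luteal phase ovaries, ovary 2 was lowest for 22 members (20.7% of all genes), ovary 4 for 21 (19.8%), and ovary 3 was highest for 22 (24.5%).

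**Figure D2:**
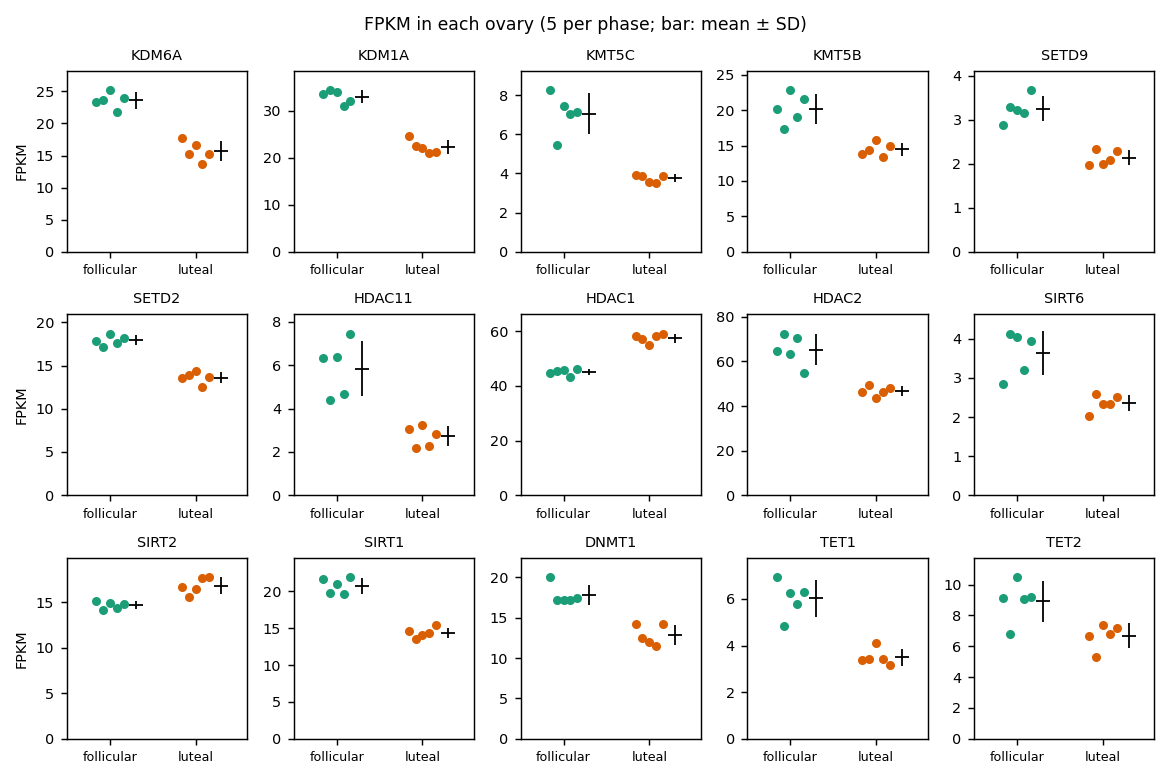
FPKM of the 15 members described in full in each ovary, 1 panel per member with its own axis from 0, with points for ovaries and a vertical bar for the mean ± SD of each phase. The phases do not overlap in 14 of the panels, and TET2 is the panel in which they do. Members were picked for the largest called change or the highest level of their family, so these panels do not stand for all members. Of all genes tested 28.4% had separate ranges.

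The histone demethylases were either lower in the luteal phase or not called. Of 16 KDM genes tested 8 were lower and none was higher, beside 27.8% and 15.9% of all genes. With a common median 5 were lower, beside 19.9% of all genes, and with TPM 2 were lower, beside 17.0%. KDM1A, which removes mono- and dimethylation from H3K4 and is the demethylase the study itself names, had 24.5, 22.5, 22.1, 20.9 and 21.1 FPKM in luteal phase ovaries 1 to 5 and 33.5, 34.4, 34.0, 31.0 and 32.0 in follicular phase ovaries 1 to 5. Every luteal phase ovary lay below every follicular one. The means were 22.2 ± 1.45 and 33.0 ± 1.44 FPKM (SD, n = 5 each), with a log2 fold change of -0.57 (SE 0.06, adjusted p = 6.46e-05 by limma), the smallest p among the members. The 2 listed KDM1A transcripts each had a log2 fold change of -0.57 (adjusted p = 0.000967 and 0.0356 over all transcripts). Its close relative KDM1B, which acts on the same residue in growing oocytes, was not called, with means of 6.87 ± 0.929 and 6.02 ± 0.261 FPKM (0.18, SE 0.10, adjusted p = 0.179).

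All 3 demethylases that act on H3K27 were called lower in the luteal phase, beside 27.8% of all genes, and with TPM only KDM6A was, beside 17.0%. KDM6A, an X-linked enzyme that removes this silencing mark, had 17.7, 15.3, 16.6, 13.7 and 15.3 FPKM in luteal phase ovaries 1 to 5 and 23.4, 23.7, 25.2, 21.7 and 24.0 in follicular phase ovaries 1 to 5. All luteal phase ovaries were below all follicular ones. The means were 15.7 ± 1.52 and 23.6 ± 1.26 FPKM (SD, n = 5 each) and the fold change was -0.59 (SE 0.08, adjusted p = 0.000199). KDM6B, its inducible relative, was scarce, at 0.639 ± 0.147 and 0.998 ± 0.197 FPKM (-0.58, SE 0.19, adjusted p = 0.0305). KDM7A, which acts on H3K9 and H3K27, had 4.65 ± 0.466 and 5.87 ± 0.735 FPKM (-0.33, SE 0.11, adjusted p = 0.0342). The phases overlapped for KDM6B and KDM7A, which were called in 5 and 4 of the 10 fits that left out 1 ovary. KDM7A was called under none of the 3 other scalings.

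Among the demethylases of di- and trimethylated H3K4, KDM5B was lower, at 11.6 ± 0.616 against 14.5 ± 1.06 FPKM (-0.32, SE 0.07, adjusted p = 0.00517, and 0.0959 with TPM), and the phases did not overlap. KDM5A had nearly equal means of 15.0 ± 0.688 and 14.8 ± 1.20 FPKM (0.02, SE 0.07, adjusted p = 0.868). KDM5C was not called, at 16.3 ± 1.39 and 18.2 ± 0.557 FPKM (-0.16, adjusted p = 0.083).

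The KDM2, KDM3 and KDM4 enzymes act on H3K9, H3K36 or both, and 3 of the 7 tested were lower, beside 27.8% of all genes. KDM3B, an H3K9 demethylase, had the largest change of them with 10.5 ± 1.17 against 14.3 ± 1.71 FPKM (-0.44, SE 0.10, adjusted p = 0.00557, and 0.0539 with TPM). KDM2A, which acts on H3K36, and KDM4A, which acts on both residues, had fold changes of -0.27 and -0.21 with adjusted p of 0.0391 and 0.0485. Neither was called under any of the 3 other scalings, and they were called in 4 and 3 of the 10 fits that left out 1 ovary. KDM3A lay just outside the threshold (-0.21, adjusted p = 0.0503), and KDM2B (-0.29), KDM4B (-0.15) and KDM4C (-0.00) were not called. KDM4C was level, with 10.4 FPKM in each phase. KDM8, a JmjC hydroxylase, had 0.992 ± 0.104 and 0.929 ± 0.275 FPKM and was not called (0.12, adjusted p = 0.632).

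All 8 KMT genes had a fold change below 0, beside 62.0% of all genes, and 6 were called lower, beside 27.8%. With a common median 5 were called lower, beside 19.9%, and with TPM 3, beside 17.0%. The 3 H4K20 methyltransferases were each called, although KMT5A was called under none of the 3 other scalings. KMT5C, which completes di- and trimethylation of this residue in compact chromatin, had 3.94, 3.86, 3.57, 3.53 and 3.89 FPKM in luteal phase ovaries 1 to 5 and 8.26, 5.45, 7.45, 7.02 and 7.13 in follicular phase ovaries 1 to 5. The luteal phase ovaries were closely grouped, and the lowest follicular phase ovary, ovary 2, was still above all of them. The means were 3.76 ± 0.191 and 7.06 ± 1.03 FPKM (SD, n = 5 each) and the fold change was -0.88 (SE 0.11, adjusted p = 0.000148).

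KMT5B, which catalyses the same step, had 13.8, 14.3, 15.8, 13.4 and 15.0 FPKM in luteal phase ovaries 1 to 5 and 20.2, 17.3, 22.8, 19.0 and 21.6 in follicular phase ovaries 1 to 5. The ranges were again apart, with means of 14.4 ± 0.960 and 20.2 ± 2.16 FPKM (-0.48, SE 0.09, adjusted p = 0.00124). KMT5A, which adds the initial methyl group to H4K20, differed less, at 5.85 ± 0.606 and 7.34 ± 0.830 FPKM (-0.32, SE 0.11, adjusted p = 0.0333). KMT5A was called in 3 of 10 fits that left out 1 ovary.

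The H3K4 methyltransferases were less uniform. KMT2C, of an enhancer-acting complex, was lower at 4.41 ± 0.776 against 6.27 ± 0.766 FPKM (-0.50, SE 0.13, adjusted p = 0.0102), and KMT2B at 2.01 ± 0.287 against 2.83 ± 0.499 (-0.47, SE 0.15, adjusted p = 0.0288). Their relatives KMT2A (-0.35, adjusted p = 0.129) and KMT2D (-0.29, adjusted p = 0.128) were not called. KMT2E, which binds methylated H3K4 and has no known methyltransferase activity, was lower with 12.7 ± 1.17 against 17.4 ± 2.22 FPKM (-0.45, SE 0.10, adjusted p = 0.00468). With TPM, KMT2E was called, whereas KMT2B and KMT2C had adjusted p of 0.126 and 0.0549. KMT2B was called in 5 of 10 fits that left out 1 ovary.

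SETD proteins share a SET domain but not a substrate. SETD2, which trimethylates H3K36 behind elongating RNA polymerase, had 13.6, 13.9, 14.4, 12.5 and 13.7 FPKM in luteal phase ovaries 1 to 5 and 17.9, 17.1, 18.7, 17.7 and 18.2 in follicular phase ovaries 1 to 5. The ovaries of each phase were tightly grouped and the phases did not overlap. The means were 13.6 ± 0.691 and 17.9 ± 0.589 FPKM (SD, n = 5 each) and the fold change was -0.40 (SE 0.06, adjusted p = 0.000559). SETD9, whose substrate is not settled, had 1.97, 2.34, 1.98, 2.08 and 2.28 FPKM in luteal phase ovaries 1 to 5 and 2.88, 3.28, 3.22, 3.15 and 3.67 in follicular phase ovaries 1 to 5. It too had separate ranges (-0.58, SE 0.11, adjusted p = 0.00156).

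SETD1B, an H3K4 methyltransferase, was lower at 0.772 ± 0.138 against 1.21 ± 0.270 FPKM (-0.58, SE 0.18, adjusted p = 0.0253), and its close relative SETD1A was not called (-0.21, adjusted p = 0.216). SETD4 was lower at 4.66 ± 0.787 against 6.23 ± 0.685 FPKM (-0.42, SE 0.13, adjusted p = 0.0202). SETD1B was not called with TPM, and SETD4 under none of the 3 other scalings. SETD1B was called in 6 of 10 fits that left out 1 ovary. SETD5 was not called (-0.24, adjusted p = 0.0934). SETD3, which methylates a histidine of actin, SETD6, which methylates the NF-kappaB subunit RELA, and SETD7, an H3K4 monomethyltransferase, had fold changes of -0.01, -0.07 and -0.04 with adjusted p of 0.928, 0.713 and 0.862. These folds lay so near 0 that the shift of all genes under another scaling turned their signs.

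Of 11 HDAC genes, the zinc-dependent deacetylases, 4 were lower and 3 were higher, beside 27.8% and 15.9% of all genes. These counts were the same with a common median, beside 19.9% and 18.9% of all genes, and with TPM 3 were lower and 3 higher, beside 17.0% and 18.8%. HDAC1, a class I enzyme of the Sin3, NuRD and CoREST corepressor complexes, had 58.0, 57.2, 54.8, 58.1 and 59.1 FPKM in luteal phase ovaries 1 to 5 and 44.8, 45.4, 45.9, 43.2 and 46.2 in follicular phase ovaries 1 to 5. Every luteal phase ovary was above every follicular one. The means were 57.4 ± 1.62 and 45.1 ± 1.18 FPKM (SD, n = 5 each) and the fold change was 0.35 (SE 0.05, adjusted p = 0.000365).

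HDAC2, the partner of HDAC1 in the same complexes, went the other way. It had 46.3, 49.5, 43.5, 46.2 and 48.2 FPKM in luteal phase ovaries 1 to 5 and 64.6, 72.5, 63.5, 70.6 and 55.0 in follicular phase ovaries 1 to 5. Every luteal phase ovary was below every follicular one, with means of 46.7 ± 2.28 and 65.2 ± 6.89 FPKM (-0.48, SE 0.08, adjusted p = 0.00081). Opposite calls for HDAC1 and HDAC2 held under all 3 scalings and in all 10 fits that left out 1 ovary. HDAC3, the class I enzyme of the NCoR and SMRT corepressors, was higher at 33.7 ± 2.21 against 27.6 ± 1.91 FPKM with separate ranges (0.29, SE 0.07, adjusted p = 0.00686). HDAC8, the remaining class I enzyme, was level at 5.33 ± 0.861 and 5.17 ± 0.411 FPKM (0.03, adjusted p = 0.838).

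The class IIa enzymes, which shuttle between nucleus and cytoplasm, also split. HDAC5 was lower with 11.6 ± 1.33 against 17.6 ± 1.54 FPKM and separate ranges (-0.60, SE 0.09, adjusted p = 0.000567). HDAC7, which is known from endothelial cells, was higher with 6.74 ± 0.542 against 5.54 ± 0.632 FPKM (0.28, SE 0.10, adjusted p = 0.0425), but the phases overlapped and it was called in 4 of 10 fits that left out 1 ovary. HDAC4 (-0.27, adjusted p = 0.208) and HDAC9 (-0.49, adjusted p = 0.118) were not called. HDAC9 ran from 4.54 to 11.7 FPKM among follicular phase ovaries.

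HDAC11, the single class IV enzyme, had the largest fold change of all members. Its FPKM were 3.07, 2.20, 3.23, 2.27 and 2.84 in luteal phase ovaries 1 to 5 and 6.34, 4.41, 6.37, 4.65 and 7.46 in follicular phase ovaries 1 to 5. Both phases spread widely, yet the highest luteal phase ovary was below the lowest follicular one. The means were 2.72 ± 0.467 and 5.85 ± 1.29 FPKM (SD, n = 5 each) and the fold change was -1.06 (SE 0.17, adjusted p = 0.000601). HDAC6, the cytoplasmic tubulin deacetylase of class IIb, was lower at 4.78 ± 0.308 against 6.21 ± 0.494 FPKM (-0.37, SE 0.09, adjusted p = 0.00688, and 0.0779 with TPM). HDAC10, a class IIb enzyme that deacetylates polyamines, was not called (-0.35, adjusted p = 0.0787).

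Of the 7 sirtuins 2 were lower, 1 was higher and 4 were not called, close to the 27.8% and 15.9% of all genes tested. SIRT1, a nuclear deacetylase of histones and transcription factors, had 14.6, 13.5, 14.0, 14.4 and 15.4 FPKM in luteal phase ovaries 1 to 5 and 21.6, 19.7, 21.0, 19.6 and 21.9 in follicular phase ovaries 1 to 5. The phases were clearly apart, with means of 14.4 ± 0.704 and 20.8 ± 1.08 FPKM (-0.53, SE 0.06, adjusted p = 0.000113). SIRT2, which is mainly cytosolic and deacetylates tubulin, had 16.7, 15.5, 16.4, 17.7 and 17.8 FPKM in luteal phase ovaries 1 to 5 and 15.2, 14.1, 14.9, 14.3 and 14.9 in follicular phase ovaries 1 to 5. The luteal phase ovaries were all above the follicular ones by a small margin (0.19, SE 0.06, adjusted p = 0.0274). The SIRT2 call held under all 3 scalings and in 7 of 10 fits that left out 1 ovary.

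The mitochondrial sirtuins were not called. SIRT3, the main deacetylase of the mitochondrial matrix, had 5.35 ± 0.770 and 4.09 ± 0.941 FPKM with overlapping phases (0.40, SE 0.17, adjusted p = 0.0713), and it was called higher with a common median (0.48, adjusted p = 0.0281), with quantile normalization (0.48, adjusted p = 0.023) and with TPM (0.50, adjusted p = 0.0449). SIRT5, a desuccinylase, had 9.02 ± 1.20 and 10.7 ± 0.644 FPKM (-0.25, adjusted p = 0.0625), and SIRT4 had 1.21 ± 0.183 and 1.41 ± 0.156 FPKM (-0.21, adjusted p = 0.24). SIRT7, a nucleolar sirtuin, was level (0.03, adjusted p = 0.805).

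SIRT6, a nuclear deacetylase of telomeric and promoter chromatin, had 2.04, 2.59, 2.34, 2.34 and 2.51 FPKM in luteal phase ovaries 1 to 5 and 2.86, 4.14, 4.04, 3.21 and 3.94 in follicular phase ovaries 1 to 5, and was called lower (-0.59, SE 0.13, adjusted p = 0.00421). This call rested on a single transcript. XM_018050860.1 was listed at 0 in all 5 luteal phase ovaries and had 1.52, 2.64, 2.85, 2.15 and 1.63 FPKM in follicular phase ovaries 1 to 5, where it held 59.2% of the SIRT6 FPKM on average. Without this transcript, a setting chosen after the data were seen, the sums were 2.36 ± 0.211 FPKM in the luteal and 1.48 ± 0.491 in the follicular phase with overlapping ranges. Removing it can lower only the follicular sums, so this difference (0.69) is a description with no test. The most abundant SIRT6 transcript, XM_018050858.1, was not called (0.40, adjusted p = 0.286 over all transcripts). Only 1 of 32842 transcripts tested (0.00304%), the SIRT6 one, was listed at 0 in every luteal phase ovary and above 1 FPKM in every follicular one, and 6 (0.0183%) showed the reverse. How the reads of overlapping transcripts were divided between them was not tested, and a listed 0 is not proof of absence.

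**Figure D3:**
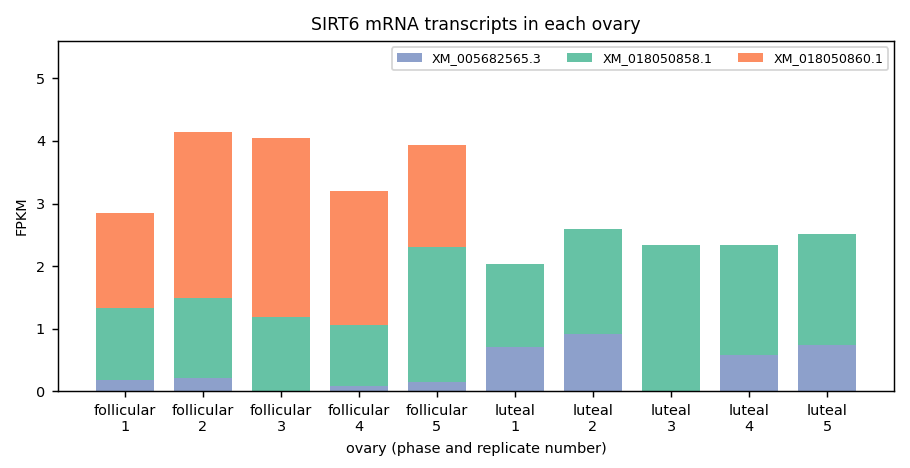
FPKM of the transcripts of SIRT6 in each of the 10 ovaries, stacked so that the bar height is the summed FPKM. XM_018050860.1 is missing from the 5 luteal bars and adds 1.52 to 2.85 FPKM to the 5 follicular bars.

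Of 3 DNMT genes tested 2 were lower and none was higher, beside 27.8% and 15.9% of all genes, and with TPM 1 was lower, beside 17.0%. DNMT1, which copies methylation to the new strand after replication, had 14.2, 12.5, 12.0, 11.5 and 14.2 FPKM in luteal phase ovaries 1 to 5 and 20.0, 17.2, 17.2, 17.2 and 17.5 in follicular phase ovaries 1 to 5. Follicular phase ovary 1 stood above the other 4, and every luteal phase ovary was below all 5. The means were 12.9 ± 1.22 and 17.8 ± 1.23 FPKM (SD, n = 5 each) and the fold change was -0.47 (SE 0.08, adjusted p = 0.00104). All 6 listed genes of dividing cells had a fold change below 0, beside 62.0% of all genes. MCM2 (-0.81, adjusted p = 0.00785) and CDK1 (-0.59, adjusted p = 0.0284) were called lower, beside 27.8% of all genes. TOP2A (-0.76), CCNB1 (-0.61), MKI67 (-0.36) and PCNA (-0.29) were not called. The part of dividing cells in the DNMT1 result was not tested. Of the de novo enzymes, DNMT3A was lower at 5.34 ± 0.469 against 7.39 ± 0.921 FPKM (-0.46, SE 0.11, adjusted p = 0.00595, and 0.0541 with TPM). DNMT3B was scarce, at 0.787 ± 0.0805 and 1.03 ± 0.228 FPKM, and was not called (-0.34, adjusted p = 0.116).

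All 3 TET genes were called lower in the luteal phase, beside 27.8% of all genes. TET1 had 3.40, 3.41, 4.12, 3.41 and 3.15 FPKM in luteal phase ovaries 1 to 5 and 6.94, 4.82, 6.28, 5.78 and 6.30 in follicular phase ovaries 1 to 5. Luteal phase ovary 3 was above its group but still below the lowest follicular phase ovary, and the means were 3.50 ± 0.364 and 6.02 ± 0.787 FPKM (-0.76, SE 0.12, adjusted p = 0.000472). TET2 had 6.67, 5.33, 7.40, 6.80 and 7.20 FPKM in luteal phase ovaries 1 to 5 and 9.11, 6.78, 10.5, 9.05 and 9.17 in follicular phase ovaries 1 to 5. Its phases overlapped through follicular phase ovary 2 (-0.41, SE 0.13, adjusted p = 0.023). TET3 had the lowest level, 1.20 ± 0.156 against 1.90 ± 0.390 FPKM (-0.60, SE 0.16, adjusted p = 0.0121). With a common median all 3 were called, and with TPM TET1 alone was, beside 17.0% of all genes, with adjusted p of 0.128 for TET2 and 0.0566 for TET3.

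Multiplying all values of an ovary by 1 factor, as TPM does, leaves ratios within it as they are. The FPKM ratios of 14 pairs of members were therefore set side by side, and 8 had separate ranges and 6 overlapped. No share over all pairs of genes was computed, so this count has nothing to be read against. The pairs were chosen after the values were seen and carry no test. Some pairs join members called in opposite directions, or a called with an uncalled member. A difference in their ratio adds nothing to those calls. HDAC1 had 1.16 to 1.26 times the FPKM of HDAC2 in luteal phase ovaries and 0.612 to 0.840 times in follicular phase ovaries, so the more abundant of these partners was HDAC1 in every luteal and HDAC2 in every follicular phase ovary. The ratio of HDAC3 to HDAC2 ran from 0.660 to 0.797 and from 0.357 to 0.525, whereas that of HDAC1 to HDAC3 overlapped, from 1.58 to 1.86 and from 1.53 to 1.76.

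SIRT2 and SIRT1 also changed places, with a SIRT2 to SIRT1 ratio of 1.15 to 1.23 in luteal and 0.677 to 0.732 in follicular phase ovaries. KDM5A to KDM5B, a pair with the same substrate, had very narrow ranges, from 1.27 to 1.31 and from 0.984 to 1.04. KDM1B was 0.239 to 0.364 times as abundant as KDM1A in luteal and 0.173 to 0.191 times in follicular phase ovaries. The ratio of HDAC7 to HDAC5 ran from 0.536 to 0.613 and from 0.294 to 0.333, and that of KMT5C to KMT5B from 0.226 to 0.285 and from 0.314 to 0.409. KDM6A to KDM5C, a pair of X-linked demethylases with different substrates, ran from 0.900 to 1.10 and from 1.23 to 1.35. DNMT1 to DNMT3A had a mean ratio of 2.41 ± 0.0625 in the luteal and 2.44 ± 0.296 in the follicular phase, with overlapping ranges. The ranges of KDM4C to KDM4A, TET1 to TET2, SIRT7 to SIRT6 and KMT2C to KMT2D overlapped too.

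**Figure D4:**
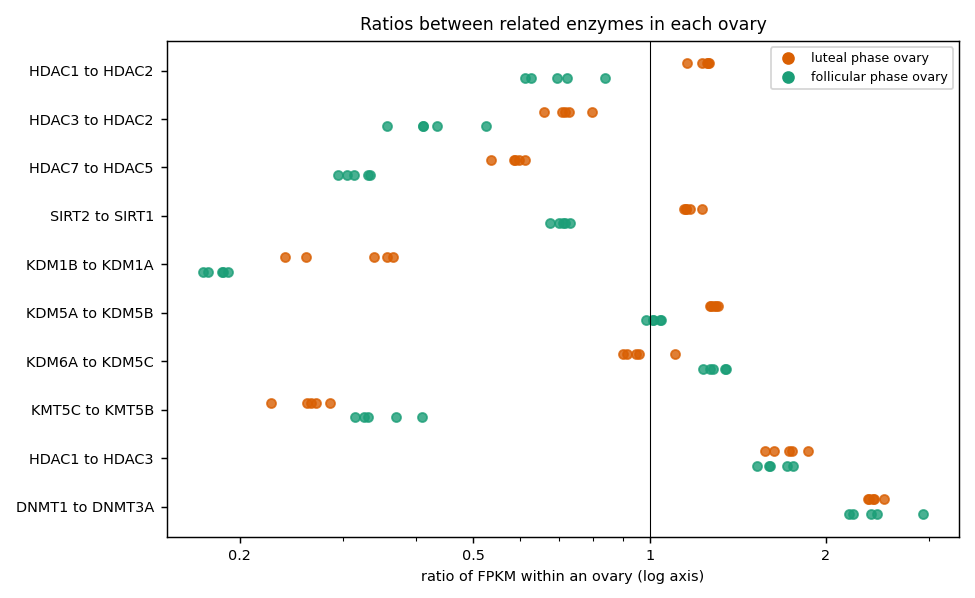
Ratio of FPKM between members within each of the 10 ovaries, for 10 of the 14 pairs on a log axis, with 1 point per ovary coloured by phase and a line at 1. HDAC1 to HDAC2 and SIRT2 to SIRT1 lie above 1 in all 5 luteal and below 1 in all 5 follicular phase ovaries, and HDAC1 to HDAC3 overlaps between the phases.

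Fewer calls were made on single transcripts. Of 163 member transcripts tested 22 (13.5%) were called, beside 17.3% of all transcripts, with 19 lower and 3 higher (9.82% and 7.47% of all transcripts). The median log2 fold change was -0.26 over member transcripts and -0.15 over all transcripts. The calls fell in 18 members, and 21 of the 22 calls had the direction of a called gene. Gene values are sums of these transcripts, so a shared direction is largely built in. The remaining call was HDAC9 transcript XM_018047346.1 (-1.81, adjusted p = 0.0221). The 3 higher calls were both HDAC1 transcripts and the single HDAC3 transcript. When each gene was read from its most abundant transcript alone, 16 of the 33 member calls held. Among those lost were KDM6A (-1.01, adjusted p = 0.0987), DNMT1 (-0.26, adjusted p = 0.57) and HDAC5 (-0.78, adjusted p = 0.0743), and the signs of KMT2C (0.23, adjusted p = 0.815) and TET3 (0.06, adjusted p = 0.952) turned. Both SIRT1 transcripts were lower (-0.48, adjusted p = 0.00473, and -0.56, adjusted p = 0.000741), as were 2 of 3 TET1 transcripts (-0.60, adjusted p = 0.0278, and -0.89, adjusted p = 0.0308).

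Of the 42 members with more than 1 transcript, 4 (KDM4A, KDM6A, KMT5B and SIRT6) had a transcript whose share of the gene's FPKM did not overlap between the phases. This is 9.52%, beside 7.65% of all tested genes with more than 1 transcript. The KMT5B transcript XM_018043200.1 held 74.0 ± 3.08% of the gene in luteal and 82.2 ± 2.38% in follicular phase ovaries, and it was lower in the luteal phase (-0.63, adjusted p = 0.00313). The other one, XM_018043198.1, was level (0.07, adjusted p = 0.752).

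The study lists a pair of transcripts of uncertain coding potential as co-expressed with KDM1A in these ovaries. Its text names a further one for a set of genes that includes KDM1A. TUCP_000183 had 933 to 1158 FPKM in luteal phase ovaries and 584 to 687 in follicular phase ovaries (0.69, SE 0.09, adjusted p = 0.000593). TUCP_001032 had 1.58 to 2.34 FPKM in luteal phase ovaries and was listed at 0 in every follicular one (adjusted p = 1.14e-06). Both were thus higher in the phase in which KDM1A was lower. The study took them from transcripts it had found higher in the luteal phase, so their direction is no separate finding.

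The partners and counterparts of these enzymes were taken from a list of 116 other chromatin genes written by function, of which 103 were tested. In this list 51 genes were lower and 5 were higher, beside 27.8% and 15.9% of all genes tested, and the median log2 fold change was -0.29, beside -0.14. With TPM 26 were lower and 7 higher, beside 17.0% and 18.8% of all genes. Of 12 subunits of COMPASS complexes, which hold the KMT2 and SETD1 enzymes, and of associated complexes 9 were lower. They include KANSL1, which belongs to an acetyltransferase complex, and the shared COMPASS core of WDR5, RBBP5, ASH2L and DPY30, of which all but DPY30 were lower. Of the arginine methyltransferases and deiminases 7 of 10 were lower, and of the other lysine methyltransferases 10 of 16 were lower and 2 higher. Of 19 subunits of deacetylase complexes 9 were lower and none was higher. The acetyltransferases (5 of 14 lower), the PRC2 genes, whose complex methylates H3K27 (4 of 11 lower), and the other JmjC proteins (3 of 6 lower) had no higher call. Of the partners and readers of DNA methylation 4 of 15 were lower and 3 higher. Each of these counts is to be read against the same 27.8% lower and 15.9% higher among all genes.

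The largest changes in that list were those of PADI2, an arginine deiminase (0.949 ± 0.204 against 3.00 ± 1.61 FPKM, -1.45, adjusted p = 0.00304), RCOR2, a CoREST protein that binds KDM1A (1.26 ± 0.226 against 3.17 ± 0.505 FPKM, -1.26, adjusted p = 0.00011), and HR, a JmjC corepressor (-1.12, adjusted p = 0.00146). Of the other CoREST proteins, RCOR3 was lower (-0.39, adjusted p = 0.0196) and RCOR1 was not called (-0.15, adjusted p = 0.347). On the higher side were SMYD2, a lysine methyltransferase (22.7 ± 3.54 against 15.1 ± 2.07 FPKM, 0.58, adjusted p = 0.00271), MBD1, which binds methylated DNA (0.42, adjusted p = 0.00461), and SMYD4 (0.36, adjusted p = 0.0473).

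**Figure D5:**
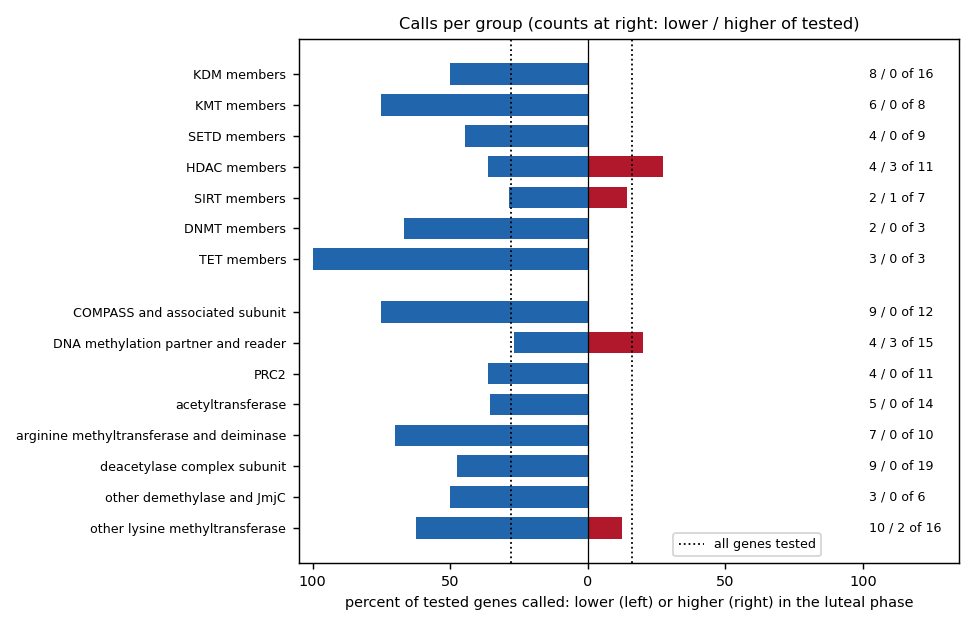
Percent of tested genes called lower (left) or higher (right) in the luteal phase for the 7 member families and for 8 groups of other chromatin genes, with dotted lines at 27.8% and 15.9% for all genes tested. Higher calls appear in the HDAC and SIRT families, the DNA methylation partners and the other lysine methyltransferases.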

How the data were processed

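Per the study's methods, the authors aligned reads with HISAT2 2.0.4, assembled transcripts with StringTie 1.3.1 and computed the deposited FPKM per transcript and ovary with Cuffdiff 2.1.1, without pooling ovaries. The genome build is not given in the sources used here. FPKM of 43766 mRNA transcripts were summed per symbol to 20587 genes. log2(FPKM + 0.1) was fitted with limma 3.58.1 (lmFit, eBayes with trend) in R 4.3.3, and summaries used Python 3.11.15, numpy 2.4.6, pandas 2.3.3 and matplotlib 3.10.9. The script was tested on simulated data. Alternatives were other pseudocounts and filters, TPM, quantile normalization, a common median, eBayes with no trend, the most abundant transcript, a replicate block and leaving out each ovary. Members and lists were chosen with earlier results of these data known. Values per ovary are given for the called member with the largest change in each direction and the most abundant member of each family, which in the KDM family is KDM1A. Of other chromatin genes the 3 with the largest called change in each direction are named. The other deposited tables repeat rows of the transcript table and were not used.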

Additional observations from a re-analysis of the deposited data

Results flagged for a closer look

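In 6 of 114 groups of 5 ovaries, 1 ovary stood far from the other 4 (Dixon's critical value 0.71). About 1 in 20 groups, or 5.7 of 114, would be so marked by chance. In luteal phase ovary 3, KDM3A had 11.8 FPKM (9.48 to 10.1 in the others), SETD7 had 15.0 (10.04 to 10.9) and TET1 had 4.12 (3.15 to 3.41). SIRT4 had 1.53 FPKM in luteal phase ovary 4 (1.09 to 1.17 in the others). DNMT1 had 20.0 FPKM in follicular phase ovary 1 (17.2 to 17.5 in the others), and KMT5A had 5.88 in follicular phase ovary 5 (7.43 to 7.83 in the others).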

How the results depend on the processing

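Of the 33 member calls, 18 held under the common median, quantile normalization and TPM alike, 22 in all 10 fits that left out 1 ovary, and 16 in both. No called member changed sign under these settings, and KMT2C, TET3 and SIRT6 did with the most abundant transcript. With TPM, 19 members were called (14 lower), and 33 in place of 56 other chromatin genes. With the most abundant transcript of each gene, 16 members (14 lower, 2 higher) and 34 other chromatin genes were called. The median over members was -0.23 with TPM, and -0.24 with a common median and with quantile normalization. The SIRT6 fold was 0.40 with its most abundant transcript and was not called (adjusted p = 0.202 by limma). Without XM_018050860.1 it was 0.69, but this removal can lower only the follicular sums, so that value carries no test. Leaving out 1 ovary gave 24 to 34 members called, 21 to 31 lower, 2 to 5 higher (2 without follicular phase ovary 4 or luteal phase ovary 5), a median of -0.36 to -0.28, 44 to 61 other chromatin genes, 14 to 24 member transcripts (14 without follicular phase ovary 3), and 5443 to 6981 of all genes. The replicate block gave 33 members called, 32 of them shared with the fit without it (KMT5A was lost with adjusted p = 0.0602 and SETD5 gained with 0.0291), and 7020 of all genes. The labels do not state that ovaries of equal number are paired. The deviations of ovaries 1 to 5 correlated with those of equal number at 0.03, 0.20, 0.19, 0.09 and 0.04. Unequal numbers gave -0.25 (luteal 3 with follicular 2) to 0.22 (luteal 3 with follicular 5). Pairing was not tested. The causes of these shifts were not tested. Depth per ovary and counts per gene were not used here, so counting error could not be given.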
